A study of Mus musculus with 27 samples.

Results

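Naive CD8 T cells were compared with dendritic cells over all genes, on the 5 arrays titled CD8 Tnaive and the 3 arrays titled BM-DC, 8 of the 27 arrays of a mouse bead-array study. The arrays were chosen by sample title alone. The CD8 Tnaive samples came from the spleen of C57BL/6 mice aged 6 to 8 weeks. The BM-DC samples came from C57BL/6 bone marrow with the age label day 7, and the labels do not say from what that day is counted. The letters BM-DC are not spelled out in the labels and are read here as bone-marrow dendritic cells. No genotype other than the strain and no stimulus is given for either group, and no sort or culture step is described. Cells of both groups were washed and lysed in Trizol before total RNA was labelled. The other 19 arrays of the study hold brain microglia, astrocytes and neurons, cells titled ESdM from cultured ES cells and bone-marrow cells titled MF. They entered only the normalization, the estimate of the spread, the rule for keeping probes and the choice of the probe that stood for each gene.

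A naive CD8 T cell circulates between blood and lymphoid organs and reads peptides on MHC class I molecules through its T cell receptor, whose signals pass through the CD3 chains to kinases and adaptors. A dendritic cell takes up and degrades material, loads peptides on MHC class I and class II molecules, senses microbes through pattern recognition receptors and shows costimulatory ligands to T cells. The pair is the textbook encounter that starts a T cell response, so the receptors of that contact are carried by the T cell and most of their ligands by the dendritic cell.

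Levels are log2 normalized intensities, and a difference is CD8 Tnaive minus BM-DC on that scale, with its standard error from the limma fit where given. An offset added in the background correction holds undetected genes at levels between about 4.1 and 4.8, so differences that start from there are understated. A probe was counted as detected on an array at a detection p below 0.05. A gene was called where the limma adjusted p was under 0.05 and the difference was 1 or more in size. Median raw intensities were 86.8 to 109 on the CD8 Tnaive arrays and 27.6 to 28.6 on the BM-DC arrays. Between 14247 and 16148 of 45281 probes were detected per CD8 Tnaive array, with the fewest on replicate 2, and between 15988 and 16606 per BM-DC array. Correlations over the tested genes were 0.972 to 0.989 among CD8 Tnaive arrays, 0.983 to 0.995 among BM-DC arrays and 0.719 to 0.735 between the groups. The 3 BM-DC arrays shared 1 chip and the CD8 Tnaive arrays lay on 3 others. Chip, tissue and age label therefore cannot be told apart from the cell type. The labels do not say that replicates came from separate animals or cultures, so the p-values cover only the spread from sample to sample, part or all of which may be technical.

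The labels were set against defining markers. All 8 tested markers of naive CD8 T cells, of 12 listed, were detected on every CD8 Tnaive array, and 7 were called higher there than in BM-DC (Cd3d, Cd3e, Cd3g, Cd247, Ccr7, Il7r and Lef1). Both Cd8a probes were undetected on all 8 arrays, and Lck and Tcf7 had no named probe and were not analysed here. Of 12 dendritic cell markers 10 were tested and 7 were called lower in CD8 Tnaive than in BM-DC (Itgax, H2-Aa, H2-Ab1, H2-Eb1, Cd74, Cd86 and Batf3). Flt3 and Zbtb46, which mark conventional dendritic cells, were undetected on all 3 BM-DC arrays, Xcr1 was detected on no array, and Cd209a on 1 BM-DC array. Of 15 tested macrophage and monocyte markers 11 were detected on all BM-DC arrays, among them Lyz2, Cd14, Mrc1, Adgre1 and Csf1r. The summed log2 level of that list was 14.69 to 14.99 on the BM-DC arrays. The arrays titled BM-DC thus carried antigen-presentation genes together with macrophage genes, and how many cells of each type they held was not tested. In bulk RNA, fewer cells of a type and less RNA per cell cannot be told apart.

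Of 12814 genes tested, 4354 were called, which is 34.0% of all genes. CD8 Tnaive was higher for 2239 genes, 17.5% of those tested, and lower for 2115 genes, 16.5% of those tested. Of the genes tested, 1646 were detected on no array of either group at the probe tested. The median difference over all genes was 0.0053. Quantile normalization gives all arrays the same distribution, so this median cannot show a shift in total RNA. The arrays of the groups did not overlap for 53.8% of all genes. At 4-fold or more, 749 genes were higher and 1092 lower in CD8 Tnaive, and at 32-fold or more 64 were higher and 178 lower. The scatter of difference against level shows this asymmetry at the largest differences, although the counts past the threshold were close to even. Among the called genes, 284 that were higher in CD8 Tnaive were undetected on every BM-DC array, and 490 that were lower were undetected on every CD8 Tnaive array. For such genes a fold is given as "at least", from the mean of the brighter group against a mean over the dim arrays. Each dim array entered with the higher of the probe's own level and the lowest level detected on that array. The bound is that of the probe tested, and other probes of the gene can give less.

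**Figure D1:**
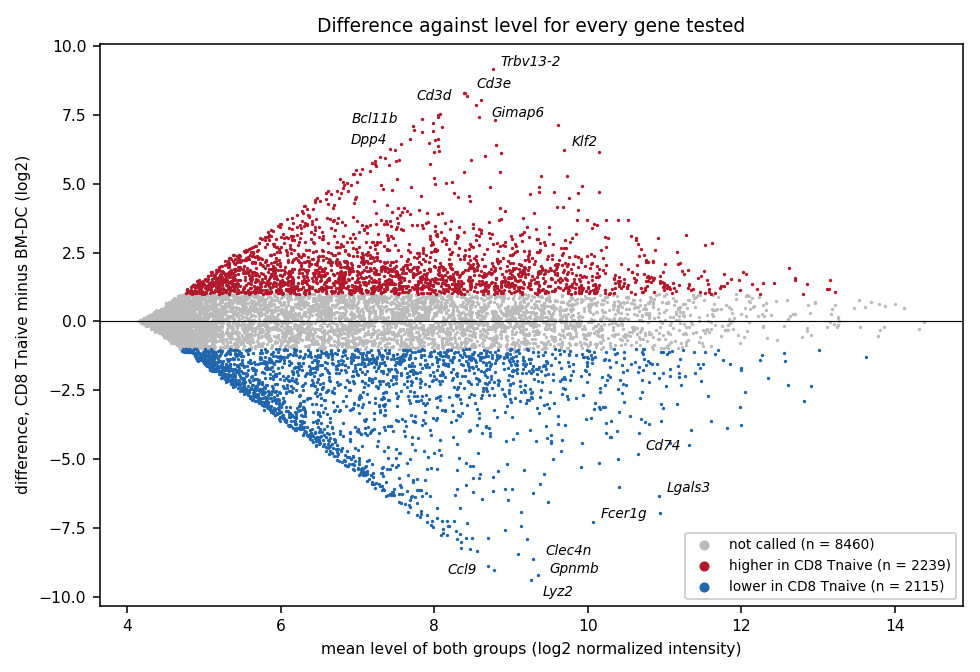
Difference between CD8 Tnaive and BM-DC (log2, vertical) against the mean level of both groups (log2 normalized intensity, horizontal) for each of the 12814 genes tested. The 2239 genes called higher in CD8 Tnaive are red, the 2115 called lower are blue, and the points furthest from 0 lie on the lower side, at Lyz2 with -9.39 and Gpnmb with -9.19.

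The 15 largest rises in CD8 Tnaive were led by the T cell receptor and its surroundings. Trbv13-2, a variable segment of the T cell receptor beta chain, had levels of 13.28, 12.63, 13.61, 13.60 and 13.53 on the CD8 Tnaive arrays and 4.21, 4.19 and 4.15 on the BM-DC arrays. It was undetected on all BM-DC arrays and at least 428-fold higher in CD8 Tnaive (limma adjusted p = 5.04e-26). Sh2d2a, the T cell specific adaptor TSAd, had levels of 12.26 to 12.67 in CD8 Tnaive against 4.19 to 4.27 in BM-DC, at least 247-fold higher. Cd3e, Cd3d, Cd3g and Thy1 were also in this group, with Gimap6, Cd27, Bcl11b and Ets1, which are described with their lists. Ctsw, Nkg7 and Klrd1, genes of cytotoxic lymphocytes, were also there, and Klrd1 had a difference of 7.44. The last members were Klk8, a kallikrein-family protease, at least 128-fold higher, and Sidt1, a membrane protein linked to RNA transport, at least 102-fold higher.

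The 15 largest falls in CD8 Tnaive were led by Lyz2, Gpnmb and Ccl9. Lyz2, the lysozyme of myeloid cells, had levels of 5.02, 4.37, 4.89, 4.22 and 4.34 on the CD8 Tnaive arrays against 14.17, 13.78 and 13.94 on the BM-DC arrays, a difference of -9.39 ± 0.19 (SE, limma adjusted p = 1.13e-23). It was detected on 2 of 5 CD8 Tnaive arrays. Gpnmb, a glycoprotein of phagocyte lysosomes, had a difference of -9.19. Ccl9, a chemokine, had levels of 4.19 to 4.35 in CD8 Tnaive against 13.26 to 13.34 in BM-DC and was at least 402-fold lower. Wfdc17, Mmp12, Klk1b11, Cstdc4 and Pdpn were undetected on all CD8 Tnaive arrays as well, with folds of at least 360, 248, 227, 211 and 196 in the same direction. The rest held the C-type lectins Clec4n and Clec4d, the lipase Lpl and the tetraspanin Cd63. It also held the inhibitory receptor Lilrb4a and the interferon-induced membrane proteins Ifitm1 and Ifitm2, and all these differences lay between -8.63 and -7.86. The other probe of Lpl differed by 0.08 and that of Lilrb4a by -0.08, and neither was called, so these 2 falls rest on the choice of probe. Lyz2 and Lyz1, and the Ifitm genes among themselves, are near-identical copies whose probes may share signal.

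Of 11 tested genes of the T cell receptor and its coreceptors, 8 were called higher in CD8 Tnaive and none lower, with a median difference of 5.22. Cd3e, a chain of the CD3 complex that carries the signal of the receptor, had levels of 12.36, 12.59, 12.52, 12.49 and 12.72 on the CD8 Tnaive arrays against 4.33, 4.15 and 4.30 on the BM-DC arrays, and was at least 246-fold higher. Cd3d, its partner, had 12.35, 12.74, 12.48, 12.41 and 12.60 in CD8 Tnaive against 4.26, 4.39 and 4.36 in BM-DC, at least 243-fold higher. Neither was detected on a BM-DC array. Cd3g, another CD3 chain, had 12.31 to 12.63 in CD8 Tnaive and 4.84, 5.06 and 5.50 in BM-DC, where all 3 arrays detected it, with a difference of 7.31. Cd247, the zeta chain, had 9.03, 5.73, 8.71, 8.98 and 8.98 in CD8 Tnaive against 4.49, 4.48 and 4.29 in BM-DC. Replicate 2 stood below the other 4 arrays for Cd247, and the gene was at least 13.0-fold higher over all 5. Thy1, Cd6, Cd2 and Trat1 were called higher too, with differences of 8.04, 6.13 and 5.22 for the first 3 and a level of 8.03 to 8.57 in CD8 Tnaive against 4.19 to 4.23 in BM-DC for Trat1.

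The 3 genes of this list that were not called were Cd28, Cd8b1 and Cd4. Cd4, which a CD8 T cell lacks, was undetected on all 8 arrays at the probe tested. Cd8b1, the beta chain of the CD8 coreceptor, was measured by 3 probes that disagreed. The probe tested, chosen for its highest mean over all 27 arrays, had levels of 8.58 to 9.16 in CD8 Tnaive and 8.37 to 8.84 in BM-DC, a difference of 0.32. A second probe had 13.31, 13.49, 13.19, 13.37 and 13.60 in CD8 Tnaive against 4.56, 4.33 and 4.33 in BM-DC, and another 10.60 to 11.23 against 4.19 to 4.35, with differences of 8.98 and 6.73. These 2 probes were detected on every CD8 Tnaive array and on no BM-DC array, so the call for Cd8b1 rests on the choice of probe. Cd28 had 1 probe, with 8.50 to 10.11 in CD8 Tnaive and 8.37 to 9.23 in BM-DC, where the groups overlapped.

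The genes of the 3 CD3 chains lie side by side on chromosome 9 (GRCm38.p6), Cd3g at 44969572 to 44980431, Cd3d at 44981769 to 44987052 and Cd3e at 44998735 to 45009663. The promoters of Cd3d and Cd3e are shown because both genes were undetected in every BM-DC array and among the largest rises. Each is a RefSeq window of GRCm38.p6 from 250 bases before to 50 bases after an annotated start, which for these 2 genes lies inside the span given above and not at its end, Cd3d at chr9:44981536-44981835 on the plus strand and Cd3e at chr9:45009562-45009861 on the minus strand, and the capitals mark AGGAAGT, a core bound by ETS family factors, on either strand.
Cd3d: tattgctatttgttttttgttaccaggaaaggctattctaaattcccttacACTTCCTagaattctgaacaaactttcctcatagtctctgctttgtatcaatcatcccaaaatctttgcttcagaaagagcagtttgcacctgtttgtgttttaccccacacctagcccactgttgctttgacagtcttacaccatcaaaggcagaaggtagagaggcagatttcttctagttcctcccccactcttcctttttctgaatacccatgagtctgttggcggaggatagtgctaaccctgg
Cd3e: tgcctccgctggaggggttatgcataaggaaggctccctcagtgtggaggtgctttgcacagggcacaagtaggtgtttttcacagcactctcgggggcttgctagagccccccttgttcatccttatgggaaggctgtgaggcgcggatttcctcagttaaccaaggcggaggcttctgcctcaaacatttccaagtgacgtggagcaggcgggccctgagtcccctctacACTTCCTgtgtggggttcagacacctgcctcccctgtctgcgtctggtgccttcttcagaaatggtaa
The motif was found in 3 of 4 promoters of the CD3 chains (Cd247 included, Cd3g not), in 9.21% of the 10314 tested genes with a promoter in the table and in 9.35% of all 32851 windows. Genes called higher in CD8 Tnaive held it in 10.6% of cases and genes called lower in 10.4%. A match is only a run of letters, and nothing about binding was measured.

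Behind the receptor, 23 of 27 tested signalling genes were called higher in CD8 Tnaive and none lower, with a median difference of 2.58. Zap70, the kinase recruited to phosphorylated CD3 and zeta chains, had levels of 11.11, 10.75, 10.84, 11.16 and 11.05 in CD8 Tnaive against 4.31, 4.53 and 4.28 in BM-DC and was at least 84.0-fold higher. Lat, the membrane scaffold that Zap70 phosphorylates, had 11.29 to 11.97 in CD8 Tnaive against 4.97, 6.26 and 5.74 in BM-DC, a difference of 6.01 ± 0.20 (SE). Dusp2, a nuclear phosphatase of MAP kinases, had a difference of 6.60. The 4 genes not called were Malt1, Txk, Nfatc2 and Bcl10, of which Malt1 and Bcl10, partners in the route to NF-kB, were detected on all 8 arrays with differences of 0.56 and -0.27.

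**Figure D2:**
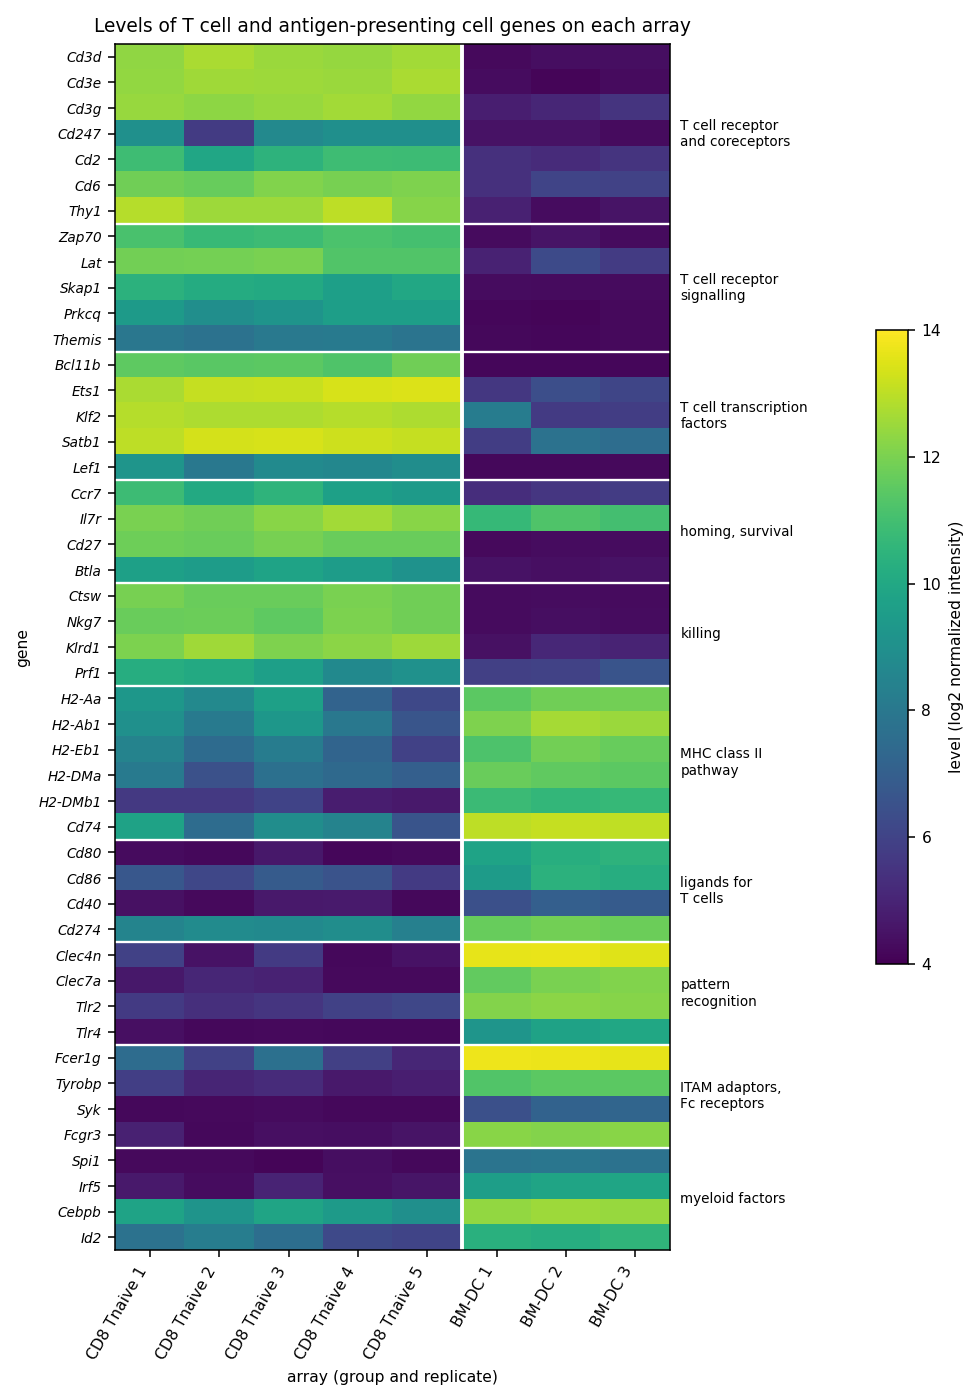
Level of 47 genes (log2 normalized intensity, colour) on each of the 5 CD8 Tnaive arrays and the 3 BM-DC arrays, grouped by role; the genes were picked from the lists after their values were seen. The T cell blocks are brighter in CD8 Tnaive than in BM-DC (Il7r is bright in both) and the other blocks are darker there, while class II genes keep an intermediate level in CD8 Tnaive that varies between its arrays.

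The same split held for transcription factors. Of 22 tested factors of T cells, 18 were called higher in CD8 Tnaive and none lower, with a median difference of 2.76. Bcl11b, which fixes the T cell fate, had levels of 11.53, 11.46, 11.48, 11.25 and 11.84 in CD8 Tnaive against 4.18, 4.16 and 4.16 in BM-DC, at least 121-fold higher. Ets1, an ETS factor of lymphocytes, had 12.74 to 13.48 in CD8 Tnaive against 5.63, 6.40 and 6.10 in BM-DC. Klf2, which keeps naive T cells quiescent and recirculating, had 12.75 to 12.90 in CD8 Tnaive against 8.18, 5.71 and 5.82 in BM-DC, where replicate 1 stood above the others. Satb1, a chromatin organizer, had a difference of 6.16 and Lef1, a partner of beta-catenin, was at least 17.4-fold higher. The 4 genes not called were Tbx21, Zbtb7b, Rora and Runx1, with differences from -0.81 to 0.86. Without BM-DC replicate 2, Runx1 was called lower, at -1.02.

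Of 23 tested transcription factors of myeloid cells, 11 were called lower in CD8 Tnaive and 2 higher, with a median difference of -0.91. Spi1, the PU.1 factor of myeloid cells, had levels of 4.24, 4.25, 4.15, 4.36 and 4.22 in CD8 Tnaive against 7.86, 7.91 and 7.78 in BM-DC. It was undetected on all CD8 Tnaive arrays and at least 9.30-fold lower. Irf5, Zeb2 and Id2 had differences of -5.17, -5.05 and -3.20, while the 2 other Zeb2 probes differed by -0.85 and -0.67 and were not called. The 2 members higher in CD8 Tnaive were Gfi1, a repressor used by lymphocytes and granulocytes, with a difference of 3.79, and Fos with 1.51. Neither is restricted to myeloid cells.

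Of 20 tested genes of homing and survival of naive T cells, 13 were called higher in CD8 Tnaive and 1 lower, with a median difference of 1.41. Cd27, a costimulatory receptor of naive T cells, had 11.70 to 11.94 in CD8 Tnaive against 4.25 to 4.34 in BM-DC and was at least 146-fold higher. Its 2 other probes differed by 4.27 and by 0.42, the latter not called. Ccr7, the receptor that leads cells to lymph nodes, had 10.87, 10.08, 10.50, 9.67 and 9.45 in CD8 Tnaive against 5.30, 5.57 and 5.77 in BM-DC, a difference of 4.57 ± 0.20 (SE). Il7r, the survival receptor for interleukin 7, was high in both groups, with 11.83 to 12.61 in CD8 Tnaive and 10.70, 11.23 and 11.03 in BM-DC, and a difference of 1.19. Dapl1 and Btla were at least 46.5-fold and 30.6-fold higher, and Igfbp4 had a difference of 4.82. Slfn2, which protects T cell quiescence, went the other way with a difference of -2.73. Of 7 tested Gimap genes, GTPases of lymphocyte survival that share sequence among themselves, 6 were called higher in CD8 Tnaive, with a median of 5.34. Gimap6 had 12.28 to 12.70 in CD8 Tnaive against 4.53 to 4.73 in BM-DC. The exception was Gimap4, with a difference of 0.20.

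Genes of killing were present at the RNA level in the cells labelled naive. Of 17 tested effector genes, 10 were called higher in CD8 Tnaive and 1 lower, with a median difference of 1.30. Ctsw, a protease of cytotoxic cells, had 11.96, 11.71, 11.72, 11.99 and 11.85 in CD8 Tnaive against 4.29, 4.33 and 4.31 in BM-DC, at least 153-fold higher. Nkg7, a granule membrane protein, was at least 144-fold higher. Prf1, the pore-former perforin, had 10.22, 10.09, 9.65, 8.73 and 9.04 in CD8 Tnaive against 5.91, 5.99 and 6.58 in BM-DC. Ccl5, a chemokine of memory and effector T cells, had 10.30 to 10.67 in CD8 Tnaive against 6.70, 8.22 and 7.60 in BM-DC. Tnf was lower in CD8 Tnaive, with a difference of -2.68. Among listed genes chosen after their values were seen, Gzmb and Klrg1, which mark activated CD8 T cells, were detected on none of the 8 arrays, and Cd44, an adhesion receptor that is low on naive T cells, had 6.08 to 6.70 in CD8 Tnaive against 11.36 to 11.70 in BM-DC. Other listed T cell genes, Il2ra and Lag3, were each detected on 2 CD8 Tnaive arrays and on no BM-DC array, and were not tested.

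Of 9 tested checkpoint receptors, 4 were called higher in CD8 Tnaive and 2 lower, beside 17.5% and 16.5% of all genes. Ctla4, the inhibitory rival of Cd28, had levels of 10.70, 10.66, 10.68, 10.02 and 9.33 in CD8 Tnaive against 4.26, 4.33 and 4.31 in BM-DC and was at least 51.5-fold higher. Btla, Cd96 and Cd160 were at least 30.6-fold, 26.8-fold and 14.7-fold higher, while the other Cd96 probe differed by 1.19. Havcr2, also found on dendritic cells and macrophages, and Cd244a were lower, with a difference of -3.27 and a fold of at least 2.15. Tigit, Pdcd1 and Cd200 were not called, with differences of 0.70, -0.02 and -0.06. Foxp3, the factor of regulatory T cells, was read by 4 probes. The probe tested had 8.20 to 8.42 in CD8 Tnaive and 8.05 to 8.49 in BM-DC, and the other 3 were undetected on every CD8 Tnaive array, of which 1 was detected on all BM-DC arrays at 4.66 to 4.76. Of 12 tested genes of common gamma chain cytokine receptors and their signalling, Jak1, Il2rb, Jak3 and Il7r were called higher. Cish, a feedback inhibitor induced by STAT5, was lower, with 5.45 to 7.23 in CD8 Tnaive against 12.05 to 12.32 in BM-DC, a difference of -5.54.

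The class II pathway, which presents peptides to CD4 T cells, was lower in CD8 Tnaive for 12 of 17 tested genes and higher for 2, with a median difference of -4.11. H2-Eb1, a beta chain, had levels of 8.48, 7.49, 8.18, 7.24 and 5.92 in CD8 Tnaive against 11.20, 11.86 and 11.66 in BM-DC, a difference of -4.11 ± 0.32 (SE). Cd74, the invariant chain that guides class II molecules, had 9.77, 7.52, 8.89, 8.47 and 6.61 in CD8 Tnaive against 12.99, 13.11 and 13.06 in BM-DC. All 5 CD8 Tnaive arrays detected both genes, and their levels spread over more than 2 log2 units there. H2-Aa and H2-Ab1 had differences of -3.53 and -4.19. H2-DMb1, part of the editor that exchanges peptides, had 5.66, 5.67, 6.03, 4.79 and 4.69 in CD8 Tnaive against 10.83, 10.62 and 10.68 in BM-DC. H2-DMb2, its near-identical neighbour, had a difference of -6.37 and Lgmn, a protease that trims the invariant chain, -5.70. Without CD8 Tnaive replicates 1 and 3 the differences were -4.39 for H2-Aa, -4.82 for H2-Ab1, -4.69 for H2-Eb1 and -5.52 for Cd74.

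H2-Oa ran against the rest of the pathway. It encodes a chain of H2-O, an inhibitor of the peptide editor, and had levels of 8.43, 8.42, 8.43, 8.39 and 8.17 in CD8 Tnaive against 6.48, 6.92 and 6.87 in BM-DC. Its difference was 1.61 ± 0.09 (SE, limma adjusted p = 5.72e-14), and 1 other probe of H2-Oa was not called. H2-Ob, which encodes the other chain of H2-O, was not called, with 0.71, and Rfxank and H2-Eb2 were not called either. Rfxap, a subunit of the factor that binds class II promoters, was higher by 1.03. That call was lost without CD8 Tnaive replicate 4 or without BM-DC replicate 3, with a difference of 0.98 each.

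Promoters of 3 of these genes are shown to set the genes lower in CD8 Tnaive beside the H2-Oa gene, which was higher. They are RefSeq windows of GRCm38.p6 on the plus strand, H2-Eb1 at chr17:34305617-34305916, H2-DMb1 at chr17:34152941-34153240 and H2-Oa at chr17:34092129-34092428. The capitals mark CCAAT, the core of the Y box of class II promoters, and AGNAACNG, a form of their X box, on either strand, so that CCAAT may read ATTGG.
H2-Eb1: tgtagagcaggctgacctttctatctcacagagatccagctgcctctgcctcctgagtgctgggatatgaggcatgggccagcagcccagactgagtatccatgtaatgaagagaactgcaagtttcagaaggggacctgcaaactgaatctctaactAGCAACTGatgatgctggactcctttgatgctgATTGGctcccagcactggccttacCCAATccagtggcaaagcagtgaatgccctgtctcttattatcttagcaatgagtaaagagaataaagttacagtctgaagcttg
H2-DMb1: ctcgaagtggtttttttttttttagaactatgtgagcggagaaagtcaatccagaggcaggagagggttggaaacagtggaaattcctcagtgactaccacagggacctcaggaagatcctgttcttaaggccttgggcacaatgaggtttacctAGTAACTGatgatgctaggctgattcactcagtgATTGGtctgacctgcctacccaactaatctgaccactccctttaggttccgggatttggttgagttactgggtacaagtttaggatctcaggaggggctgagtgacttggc
H2-Oa: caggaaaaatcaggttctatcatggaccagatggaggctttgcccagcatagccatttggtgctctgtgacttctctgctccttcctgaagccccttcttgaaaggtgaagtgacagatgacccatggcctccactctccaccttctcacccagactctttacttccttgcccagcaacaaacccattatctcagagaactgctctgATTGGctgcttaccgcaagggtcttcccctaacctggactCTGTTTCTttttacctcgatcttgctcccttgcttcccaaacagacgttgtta
H2-Eb1 and H2-DMb1 both hold the X box form upstream of an ATTGG, while H2-Oa holds an ATTGG with a match to the other motif after it and on the other strand. CCAAT was found in 9 of the 13 class II pathway promoters in the table, 69.2%, against 38.4% of tested genes with a promoter. AGNAACNG was found in 4 of the 13, 30.8%, against 16.2%. Among the 9 promoters of class II genes called lower in CD8 Tnaive, CCAAT was in 5, 55.6%, and AGNAACNG in 2, 22.2%, which are the H2-Eb1 and H2-DMb1 promoters printed here. Both motifs are short and common, and the matches describe letters alone.

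The class I pathway, used by all nucleated cells, did not split this way. Of 21 tested genes, 3 were called higher in CD8 Tnaive, 4 lower and 14 not called, with a median difference of 0.04. Among all genes 17.5% were higher and 16.5% lower. B2m, the light chain of class I molecules, had 13.34 to 13.80 in CD8 Tnaive and 13.88 to 14.24 in BM-DC, a difference of -0.52. Nlrc5, the activator of class I genes, was higher, with 8.86 to 9.65 in CD8 Tnaive against 6.25 to 6.84 in BM-DC. The proteasome activator subunits differed in direction at the probes tested. Psme1 was higher by 2.15, and its other probe differed by 0.78 and was not called. Psme2, the partner of Psme1 in the same ring, was undetected on all CD8 Tnaive arrays and at least 15.9-fold lower, with no other probe past the filter. Psmb8, an immunoproteasome subunit, had 8.48, 6.04, 8.54, 8.30 and 8.11 in CD8 Tnaive against 10.61 to 10.74 in BM-DC. The other Psmb8 probe differed by -0.99 and was not called. H2-D1, a heavy chain, was lower by -1.15, and its difference was -0.86 and no longer called without CD8 Tnaive replicate 2.

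**Figure D3:**
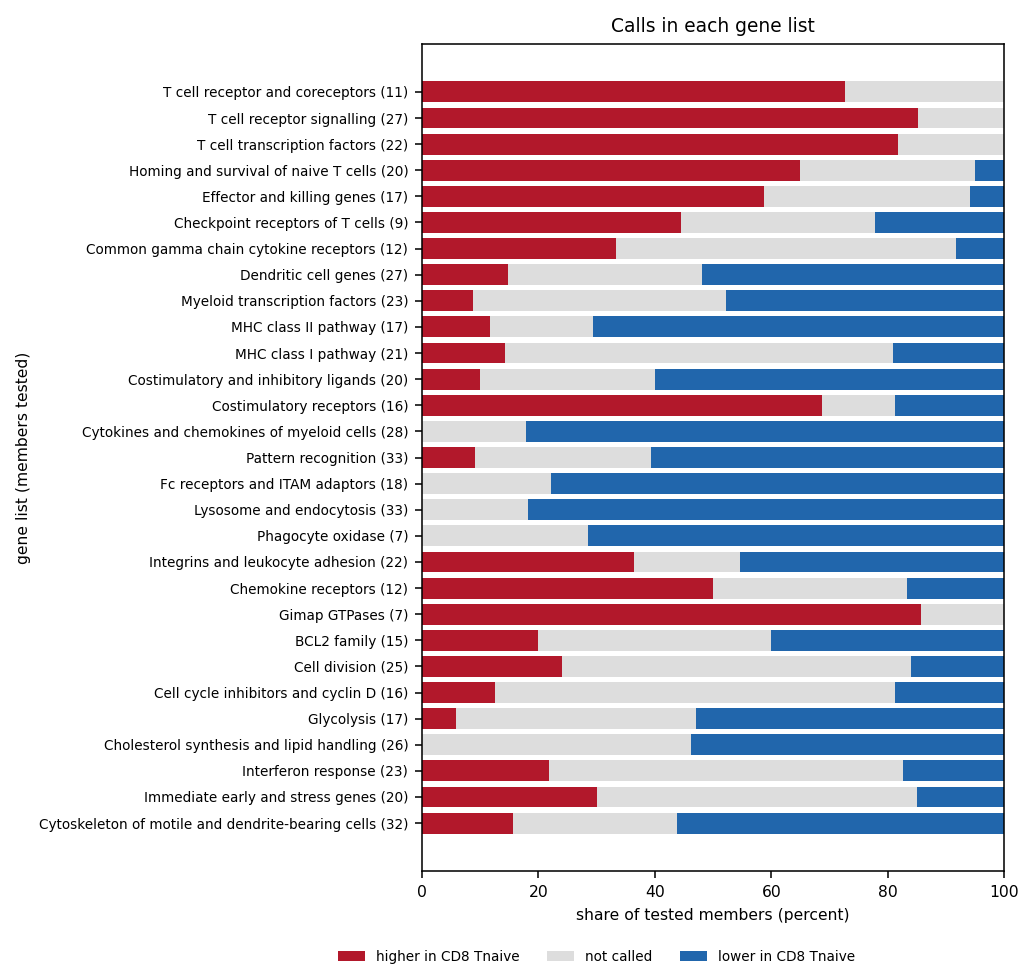
Share of the tested members of 29 gene lists (percent) called higher in CD8 Tnaive (red), not called (grey) and called lower in CD8 Tnaive (blue), with the number tested in brackets. The T cell receptor, signalling, transcription factor and Gimap lists have no blue share, and the cytokine, Fc receptor, lysosome, oxidase and lipid lists have no red share; leaving out 1 array gives the transcription factors a lower gene, Runx1, and the oxidase a higher one, Rac2.

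The contact between the cell types was described through 34 ligand and receptor pairs, of which 22 had both partners measured. In 9 pairs the ligand was lower and the receptor higher in CD8 Tnaive, in 0 pairs the ligand was higher and the receptor lower, and 1 pair had both higher and 2 both lower. Cd80, a ligand of Cd28 and Ctla4, had levels of 4.28, 4.23, 4.63, 4.16 and 4.24 in CD8 Tnaive against 9.80, 10.25 and 10.46 in BM-DC. Its difference was -5.86 ± 0.14 (SE), with 1 of 5 CD8 Tnaive arrays detecting it and 1 other probe not called. Ctla4 was called in the opposite direction, while Cd28 did not pass the test. Cd86, the second ligand of both receptors, had 5.68 to 6.88 in CD8 Tnaive against 9.48, 10.44 and 10.23 in BM-DC.

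Adhesion and cytokine pairs ran the same way. Cd6, a scavenger receptor of T cells, had 11.68 to 12.11 in CD8 Tnaive against 5.38 to 6.06 in BM-DC. Its ligand Alcam had 4.54, 4.26, 4.20, 4.20 and 4.19 in CD8 Tnaive against 8.44, 8.23 and 8.65 in BM-DC, and no CD8 Tnaive array detected it. Il18r1, a receptor chain for interleukin 18, was at least 25.2-fold higher in CD8 Tnaive, and Il18 had a difference of -3.03. The other Il18r1 probe differed by 0.92 and was not called. Il2rb, used by interleukin 15, was at least 3.26-fold higher, and Il15 had a difference of -3.16. The other pairs with a lower ligand and a higher receptor were Itgal with Icam1, Cxcr6 with Cxcl16, Cxcr3 with Cxcl10, Tgfbr2 with Tgfb1 and Tnfrsf4 with Tnfsf4. The other Cxcl16 probe differed by -0.76 and the other Cxcl10 probe by -0.12, and neither was called. At a probe other than that tested, 2 CD8 Tnaive arrays detected Cxcl10. The 2 other Tgfbr2 probes differed by -0.40, not called, and by 1.32, called higher. The Tnfsf4 call was lost without BM-DC replicate 1, at -0.93.

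Other pairs did not follow. Cd48 and its receptor Cd2 were both higher in CD8 Tnaive, by 1.25 and 5.22, and Cd48 was no longer called without CD8 Tnaive replicates 1 and 3, at 0.95. Tnfrsf9, the costimulatory receptor 4-1BB, had 4.95, 4.53, 4.25, 5.01 and 4.63 in CD8 Tnaive against 7.53, 10.38 and 9.85 in BM-DC, and its ligand Tnfsf9 was lower too. Tnf and Tnfrsf1b were both lower, by -2.68 and -1.26. Icos was higher by 4.24 while its ligand Icosl differed by -0.18. Cd274, the ligand PD-L1, had 8.35 to 8.92 in CD8 Tnaive against 11.66 to 11.88 in BM-DC, while its receptor Pdcd1 was near the undetected level in both groups. Over the whole lists, 12 of 20 tested costimulatory and inhibitory ligands were lower in CD8 Tnaive and 2 higher, with a median of -1.58, and 11 of 16 costimulatory receptors were higher and 3 lower, with a median of 2.51.

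**Figure D4:**
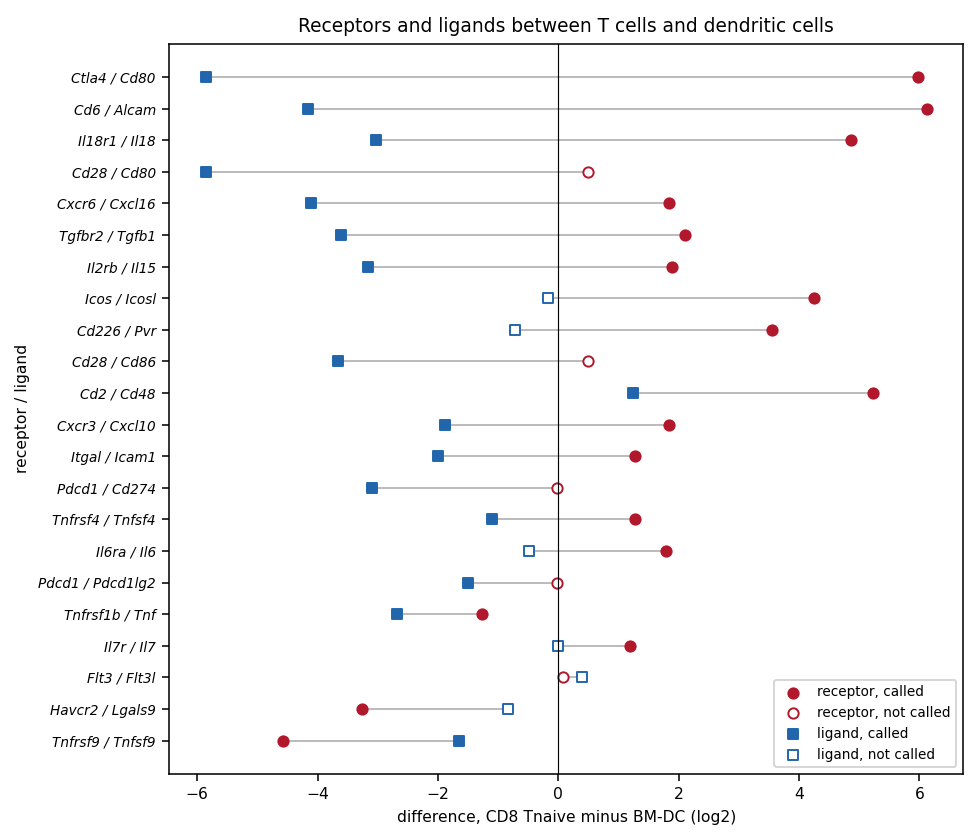
Difference between CD8 Tnaive and BM-DC (log2, horizontal) of the receptor (red circle) and the ligand (blue square) in the 22 pairs with both partners measured; open symbols did not pass the test. In most rows the receptor lies right of the ligand, with the widest gap for Ctla4 at 5.98 and Cd80 at -5.86, while the order is reversed for Tnfrsf9 at -4.58 with Tnfsf9 at -1.65 for Havcr2 at -3.27 with Lgals9 at -0.83 and for Flt3 at 0.07 with Flt3l at 0.39, where neither was called.

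Of 28 tested cytokines and chemokines of myeloid cells, 23 were called lower in CD8 Tnaive and none higher, with a median difference of -3.60. Ccl6, Pf4 and Ccl7, chemokines that draw myeloid cells or are shared with platelets, had 4.21 to 5.07, 4.18 to 4.56 and 4.17 to 4.45 in CD8 Tnaive against 11.78 to 12.02, 10.82 to 11.18 and 9.91 to 11.43 in BM-DC. Pf4 and Ccl7 were at least 85.6-fold and 60.2-fold lower. The 5 genes not called were Cxcl9, Il10, Il27, Il23a and Il6, with differences between -0.48 and 0.45. Of 12 tested chemokine receptors, 6 were higher in CD8 Tnaive and 2 lower, beside 17.5% and 16.5% of all genes. Cxcr5 and Cxcr3, which guide lymphocytes, were at least 3.91-fold and 2.97-fold higher, and Fpr2, a receptor of phagocytes for formyl peptides, had a difference of -6.14. The 2 other Cxcr5 probes differed by 0.62 and 0.96 and were not called.

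Sensing of microbes was mostly a BM-DC feature. Of 33 tested pattern recognition genes, 20 were called lower in CD8 Tnaive and 3 higher, with a median difference of -2.50. Clec4n, the lectin Dectin-2, had levels of 5.95, 4.50, 5.69, 4.23 and 4.49 in CD8 Tnaive against 13.62, 13.68 and 13.52 in BM-DC. Clec7a, the lectin Dectin-1, had 4.63, 5.06, 4.96, 4.24 and 4.26 in CD8 Tnaive against 11.58, 11.98 and 12.11 in BM-DC. Cd14, which hands lipopolysaccharide to Tlr4, had a difference of -7.31. The 3 members higher in CD8 Tnaive were Nod1, Tlr1 and Irak1, by 3.13, 2.27 and 1.54. The 2 other Irak1 probes differed by -0.15 and 0.46 and were not called. Nod1, a cytosolic sensor, had 9.32 to 9.89 in CD8 Tnaive against 7.05, 6.18 and 6.14 in BM-DC. Of 18 tested Fc receptors and ITAM adaptors, 14 were lower in CD8 Tnaive and none higher, with a median of -4.12. Fcer1g, the adaptor shared by Fc receptors, had 7.54, 5.94, 7.71, 5.90 and 5.06 in CD8 Tnaive against 13.76, 13.70 and 13.63 in BM-DC. Tyrobp, the adaptor DAP12, had 4.68 to 5.84 in CD8 Tnaive against 11.30 to 11.48 in BM-DC. Fcgr3 and Fcgr2b, receptors for IgG, had differences of -7.70 and -7.61.

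Genes of the listed dendritic cell set were split. Of 27 tested, 14 were called lower in CD8 Tnaive and 4 higher, with a median difference of -1.51. Mgl2, a lectin of dendritic cells and macrophages, had 4.17 to 4.36 in CD8 Tnaive against 11.50 to 11.61 in BM-DC. It was at least 121-fold lower at the probe tested. Its other probe past the filter differed by -5.84, and 2 CD8 Tnaive arrays detected Mgl2 at a probe other than that tested. Csf2rb2 and Csf2ra, receptor chains for interleukin 3 and GM-CSF, were lower, Csf2rb2 by at least 59.6-fold and Csf2ra with a difference of -5.36. Itgax, the CD11c integrin, had 4.16 to 4.32 in CD8 Tnaive against 6.98, 7.41 and 7.29 in BM-DC. The members higher in CD8 Tnaive were Dpp4, Ccr7, Cd1d1 and Siglech. Dpp4, the peptidase CD26 that is also a T cell surface protein, had 10.82, 10.37, 10.61, 11.03 and 11.14 in CD8 Tnaive against 4.33, 4.37 and 4.30 in BM-DC, at least 73.7-fold higher. Siglech, known from plasmacytoid dendritic cells, had 6.15, 6.90, 6.40, 5.71 and 5.52 in CD8 Tnaive against 4.37, 4.36 and 4.40 in BM-DC. Clec9a was not called, and without BM-DC replicate 1 its difference was -1.29 and it was called.

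Of 33 tested lysosome and endocytosis genes, 27 were called lower in CD8 Tnaive and none higher, with a median difference of -2.77. Cd63 had 4.22 to 4.64 in CD8 Tnaive against 12.67 to 12.77 in BM-DC, and Grn, the lysosomal progranulin, 5.03 to 6.70 against 12.56 to 12.62. Of 7 tested genes of the phagocyte oxidase, 5 were lower in CD8 Tnaive, among them Ncf1 and Cyba by -3.91 and -3.62. None was higher, but without CD8 Tnaive replicate 2 the GTPase gene Rac2 was, by 1.06. The other Ncf1 probe differed by -0.20 and was not called. Of 26 tested genes of cholesterol synthesis and lipid handling, 14 were lower and none higher, with a median of -1.04. Fabp5, a fatty acid carrier, had 4.18 to 4.25 in CD8 Tnaive against 10.10 to 10.34 in BM-DC and was at least 48.7-fold lower. Of 17 tested glycolysis genes, 9 were lower and 1 higher, with a median of -1.09. Tpi1, triosephosphate isomerase, had 8.54 to 9.05 in CD8 Tnaive against 12.15 to 12.35 in BM-DC. The member higher in CD8 Tnaive was Slc2a3, a glucose transporter, with 9.17 ± 0.17 in CD8 Tnaive (SD, n = 5) against 5.83 ± 0.16 in BM-DC (SD, n = 3).

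Shape and adhesion genes divided by type. Of 32 tested cytoskeleton genes, 18 were called lower in CD8 Tnaive and 5 higher, with a median of -1.56. The annexins Anxa3 and Anxa1, the actin capper Capg and the galectin Lgals3 had differences of -6.78, -6.34, -5.41 and -6.34. The 5 members higher in CD8 Tnaive were Dock8, Evl, Dock2, Was and Coro1a, by 3.42, 3.08, 3.07, 2.11 and 1.54; Dock2, Dock8, Was and Coro1a are genes of lymphocyte migration and of inherited immune deficiency. Actb did not pass the test at the probe tested, with 12.39 to 13.00 in CD8 Tnaive and 12.61 to 13.24 in BM-DC. Among 22 tested integrins and adhesion genes, 8 were higher and 10 lower, beside 17.5% and 16.5% of all genes. Itgae, the CD103 chain that binds E-cadherin, had 11.38, 11.79, 11.44, 11.66 and 10.90 in CD8 Tnaive against 4.68, 4.41 and 4.49 in BM-DC, a difference of 6.91. Itgb7, its partner chain, was higher by 2.77. Itgam, the CD11b integrin of myeloid cells, was undetected on all CD8 Tnaive arrays and at least 10.5-fold lower.

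Cell cycle genes did not move as a block. Of 25 tested genes of cell division, 6 were called higher in CD8 Tnaive and 4 lower, with a median of 0.10. Among all genes 17.5% were higher and 16.5% lower. The 6 were Mcm6, Mcm7, Mcm5, Mcm4, Mcm2 and Cdt1, which license replication origins, by 3.40, 2.60, 2.60, 2.38, 2.12 and 1.82. Mcm6 had 10.35, 10.54, 10.36, 9.83 and 9.91 in CD8 Tnaive against 7.97, 6.25 and 6.16 in BM-DC. The 4 members lower in CD8 Tnaive were Cdca8, E2f1, Cdk1 and Aurkb, and their calls rested on BM-DC replicate 1 (that of Aurkb also on CD8 Tnaive replicate 1, with -0.90 without it), which was the highest BM-DC array for each. Without it none of the list was called lower, with differences of -0.93, -0.99, -0.57 and -0.34, and without BM-DC replicate 2 there were 7. D-type cyclins were exchanged between the groups. Ccnd2 had 10.25 to 11.03 in CD8 Tnaive against 5.36 to 6.55 in BM-DC, while Ccnd1 had 4.45 to 4.79 in CD8 Tnaive against 9.46 to 10.91 in BM-DC. Cdkn1a, the p21 inhibitor, had 4.41 to 6.09 in CD8 Tnaive against 11.31 to 12.01 in BM-DC, and Cdkn1b, the p27 inhibitor, was higher in CD8 Tnaive by 1.08.

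The BCL2 family, which sets the threshold for apoptosis, had 3 of 15 tested members higher in CD8 Tnaive, 6 lower and 6 not called. Over all genes 17.5% were higher and 16.5% lower. Bcl2 had 8.67 to 9.42 in CD8 Tnaive against 6.40 to 6.96 in BM-DC, and all 5 other probes agreed in direction and call. Bcl2l1, Bcl2a1b and Bcl2a1d, which also protect cells, were lower, Bcl2l1 by at least 7.16-fold and the near-identical Bcl2a1 copies by -3.77 and -3.68. Bcl2l11, the killer BIM, was higher by 1.09, and fell just below the threshold without CD8 Tnaive replicate 4 or 5, at 0.95 and 0.97. Its 3 other probes differed by 0.08 to 0.31 and were not called. Of 23 tested interferon response genes, 5 were higher in CD8 Tnaive and 4 lower, with a median of 0.08. Ifit3 had 9.31, 9.93, 9.30, 10.26 and 6.47 in CD8 Tnaive against 8.07, 7.26 and 6.98 in BM-DC, so that replicate 5 lay below all BM-DC arrays. Irf7, Usp18, Isg15, Rsad2 and Ifitm3 were also lowest on replicate 5 among the CD8 Tnaive arrays. Ifitm3 had a difference of -6.57. Of 20 tested immediate early and stress genes, 6 were higher and 3 lower. Cd69, which keeps lymphocytes in tissue, had 12.40, 12.47, 12.31, 12.00 and 11.38 in CD8 Tnaive against 9.80, 8.83 and 8.41 in BM-DC, and Ier3 had a difference of -6.44.

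Markers of other cell types varied among the CD8 Tnaive arrays. Replicates 1 and 3 carried more RNA of genes that mark macrophages of the splenic red pulp, a set of 12 chosen after its values were seen. Its summed log2 level was 11.48, 9.07, 11.92, 8.97 and 8.79 on the CD8 Tnaive arrays against 13.40, 12.95 and 13.02 in BM-DC. Slc40a1, the iron exporter ferroportin, had 10.17, 7.33, 10.66, 7.10 and 6.99 in CD8 Tnaive against 8.39, 7.80 and 7.89 in BM-DC. Vcam1, an adhesion ligand, had 9.12, 6.12, 9.56, 6.31 and 6.27 in CD8 Tnaive against 4.45, 4.93 and 4.46 in BM-DC and was called higher, also without replicates 1 and 3, at 1.62 in place of 2.86. Itgad, an integrin of red pulp macrophages, was higher by 1.26 and no longer called without them, at 0.33, or without replicate 3 alone, at 0.81. The macrophage list as a whole was lower in CD8 Tnaive for 11 of 15 tested genes, with a summed log2 level of 8.63 to 10.77.

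Of 9 tested red cell and platelet markers, 3 were called higher in CD8 Tnaive, 2 lower and 4 not called, and the 3 were red cell genes. Hba-a1, an alpha globin, had 11.37, 10.44, 11.42, 10.25 and 12.59 in CD8 Tnaive against 4.29, 4.28 and 4.21 in BM-DC and was at least 98.6-fold higher. Slc4a1 and Alas2, the red cell anion exchanger and the first enzyme of haem synthesis in red cells, were at least 5.10-fold and 2.73-fold higher, with the highest level of each on replicate 5. The 2 members lower in CD8 Tnaive were the platelet chemokines Pf4 and Ppbp, by at least 85.6-fold and 2.58-fold. Of 6 tested B cell markers, Cd79b and Fcmr were called higher, by 1.70 and by at least 2.07-fold, and the summed log2 level was 7.44 to 8.15 in CD8 Tnaive against 7.10 to 7.27 in BM-DC. The B cell genes Ms4a1, Pax5, Cr2 and Jchain, chosen after their values were seen, were detected on none of the 8 arrays. Of 6 tested NK cell markers, Nkg7, Eomes and Klre1 were higher, which CD8 T cells also express, and Tyrobp was lower, while Ncr1, the marker most specific to NK cells, was detected on no array. Granulocyte markers were lower in CD8 Tnaive for 7 of 18 tested genes and higher for none, with S100a8 at 9.01, 7.42, 7.65, 4.89 and 6.76 in CD8 Tnaive against 11.87, 11.15 and 11.49 in BM-DC. Of 12 tested fibroblast and endothelial markers, 2 were higher and 2 lower, beside 17.5% and 16.5% of all genes. Those higher were Pecam1 and Fbln1, by 2.06 and 1.71, and those lower were Acta2 and Fn1. Fbln1 was detected on all 5 CD8 Tnaive arrays, at 5.43 to 6.63, and on no BM-DC array, and its 2 other probes were not called. Col1a1, Pdgfra and Pdgfrb, chosen after their values were seen, were undetected on all 8 arrays. The part of these cells in the other differences was not tested. Without CD8 Tnaive replicates 1 and 3 the comparison had 4409 called genes, 2295 higher and 2114 lower.

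**Figure D5:**
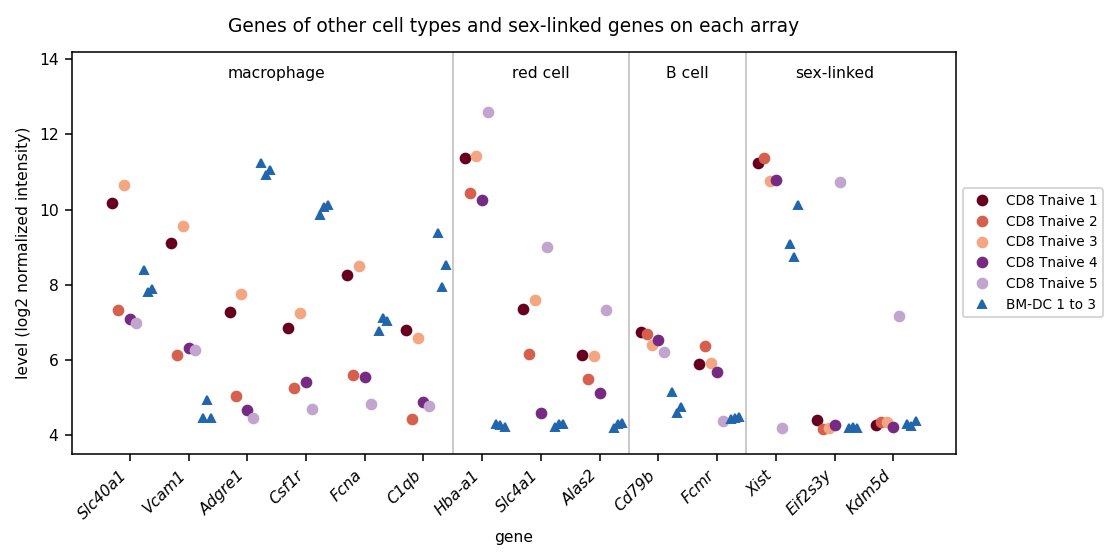
Level of 14 genes (log2 normalized intensity, vertical) on each of the 5 CD8 Tnaive arrays (circles) and the 3 BM-DC arrays (triangles), grouped as macrophage, red cell, B cell and sex-linked genes chosen after their values were seen. Replicates 1 and 3 are the highest CD8 Tnaive arrays for the macrophage genes, and replicate 5 alone has high Eif2s3y and Kdm5d and low Xist. Uty, also Y-linked, is not shown.

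The CD8 Tnaive arrays also differed in sex-linked RNA. Xist, made from the inactive X chromosome of female cells, had 11.25, 11.36, 10.76, 10.78 and 4.20 in CD8 Tnaive against 9.09, 8.75 and 10.11 in BM-DC. Eif2s3y, a Y-linked gene, had 4.41, 4.17, 4.19, 4.26 and 10.72 in CD8 Tnaive against 4.18, 4.21 and 4.20 in BM-DC. Replicate 5 thus differed from the other 4 CD8 Tnaive arrays and from all BM-DC arrays at both genes, and the labels give no sex. The other Eif2s3y probe differed by 0.10 over all arrays and was not called. Uty, also Y-linked, did not set replicate 5 apart, with 4.41, 4.77, 4.30, 4.54 and 4.97 in CD8 Tnaive against 4.53, 5.03 and 4.61 in BM-DC. Without replicate 5, 4369 genes were called, 2239 higher and 2130 lower, and Xist was higher in CD8 Tnaive by 1.72 at the probe tested. Over all arrays that probe differed by 0.35 and was not called. The 3 other Xist probes differed by -1.90 to 0.42, and 1 of them was called lower, so the direction for Xist rests on the choice of probe.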

How the data were processed

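Total RNA of 27 mouse samples was hybridised to Illumina bead arrays. The authors deposited, per the file headers, a mean signal intensity and a detection p-value for each probe and array, without normalization. The scanning software and the annotation it used are not given in the sources used here. The deposited series matrix holds the authors' processed intensities of the same arrays and served as an alternative; they are alike in distribution on all arrays, on a linear scale, and how they were background-corrected is not given in the sources used here.

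Intensities were background-corrected from the detection p-values and quantile-normalized with neqc (offset 16) in limma 3.58.1 under R 4.3.3, on all 27 arrays together. Probes detected at p below 0.05 on at least 3 of the 27 arrays were kept, which were 25001 of 45281. Of all probes, 34885 had 1 gene symbol, 18 several and 10378 none, and only the first kind was named. The probe with the highest mean over all arrays stood for its gene. Among called genes with other probes past the filter, 818 of 2204 had all others called the same way and 36 had another called the opposite way. A linear model of 8 groups (19 residual degrees of freedom, which shares the spread over all groups) was fitted with lmFit and eBayes, and p-values were adjusted by Benjamini-Hochberg over 12814 genes. Precision is set by how few arrays each group has. The procedure was tested on simulated data.

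Genes named were the 15 largest called rises and the 15 largest falls without overlap between the groups (clone names left out), up to 4 called members of each list in each direction, and every measured pair member and marker. Of 736 distinct listed genes 602 were tested. Members named beyond that rule were chosen after their values were seen. The members, pairs and lists were chosen with earlier results of these data known. Replicate numbers did not pair the samples: deviations of same-numbered arrays correlated at 0.067, -0.021 and 0.015. Alternatives covered the background correction, offset, normalization, filter, probe rule, chip block, replicate block and left-out arrays. The arrays left out together, the red pulp set and the sex-linked genes were chosen after seeing the data.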

Additional observations from a re-analysis of the deposited data

Results flagged for a closer look

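In 20 of the 251 named genes, or 7.97%, 1 CD8 Tnaive array stood apart from the other 4, judged by its gap to the nearest array over the range of all 5. Chance gives about 1 in 20, but the share cannot be read against it, because Xist, Eif2s3y and Kdm5d, 3 of the 20, were chosen after replicate 5 was seen to stand apart, as were the red pulp genes for replicates 1 and 3. The arrays concerned were replicate 5 for 9 genes, replicate 2 for 6, replicates 1 and 3 for 2 each and replicate 4 for 1. The 3 BM-DC arrays were too few for this measure. What sets these arrays apart was not tested.

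Replicate 5 stood apart in sex-linked genes other than Uty. Its gap was 0.964 of the range for Eif2s3y, 0.956 for Kdm5d (7.18 against at most 4.36) and 0.915 for Xist. It was also the low array for the interferon response genes Ifit3, with 0.746, and Ifitm3, with 0.743, for H2-Oa, with 0.816, and for the dendritic cell lectin Clec9a, with 0.882. It was the high array for Acta2, with 0.779, and Wfdc17, with 0.747, both undetected on all CD8 Tnaive arrays at the probe tested.

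Replicate 2 was low for Pecam1, an adhesion gene, with a gap of 0.944 (5.87 against at least 8.17), for Cd247, with 0.905, for Psmb8, with 0.83, for H2-D1, with 0.81, and for Gimap1, with 0.74. It was high for Cd276, with 0.749, at 4.35. Replicate 1 was high for Alcam, with 0.804, and Ccl6, with 0.747. Replicate 3 was high for Cd80, with 0.752, and Mmp8, with 0.713. Alcam, Cd276 and Mmp8 were undetected on all CD8 Tnaive arrays, where their levels spanned only 0.36, 0.19 and 0.23. Cd80 and Ccl6 were each detected on 1 CD8 Tnaive array at the probe tested. Replicate 4 was low for Bcl2l2, with 0.879 (4.58 against at least 5.25).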

How the results depend on the processing

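Over 23 alternatives, no named gene that was called changed sign, while 10 of the 251, none of them called, did so in 36 of 5745 values, among them Slc40a1, Fcna, Spic, Xist and Pdcd1. In 5601 of the values a gene stayed on its side of the threshold, in 135 a called gene fell short of it and in 9 a gene newly passed it. The count of called genes depended most on the background step. Without background correction 2548 genes were called, 1247 higher and 1301 lower in CD8 Tnaive, and with the series matrix values 2757, 1363 higher and 1394 lower; the cause was not tested. An offset of 50 gave 3300 and the mean of a gene's probes 3767. Median scaling in place of quantile normalization gave 4596, 2597 higher and 1999 lower, so that 56.5% of the calls were higher in CD8 Tnaive in place of 51.4%. Leaving out each array in turn gave 4350 to 4425 called genes, 2220 to 2288 higher and 2100 to 2137 lower. With the replicate number as a block on the 8 arrays 4387 genes were called, 2237 higher and 2150 lower, although the numbers do not pair the samples. With the chip as a random block 4356 were called (correlation 0.031), which cannot separate chip from cell type because BM-DC lay on a chip of its own. Genes dimmer than the lowest detected signal have bounds only.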

Other observations

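The 5 Actb probes past the filter disagreed. The probe with the highest mean differed by -0.25 between CD8 Tnaive and BM-DC and was not called. Among the other 4, the probe with -1.31 was not called either, and those with -2.77, -3.95 and -4.05 were called lower. On the probes with -1.31 and -2.77, CD8 Tnaive replicate 2 was far below the other CD8 Tnaive arrays. It had 9.66 against 12.56 to 12.87 on the brighter and 6.28 against 8.35 to 9.82 on the dimmer. The BM-DC arrays had 13.30 to 13.54 and 11.08 to 11.73 there. The part of RNA quality was not tested.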
